A study of Homo sapiens with 9 samples.

Results

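The libraries described here came from WiDr cells that received a control siRNA. They were chosen by their label alone and make up 3 of the 9 libraries in the series. WiDr is an established human colon adenocarcinoma line, and it is known to share its origin with the HT-29 line. The cells were grown in medium with fetal bovine serum and transfected with 100 nM of the siRNA for 24 h, and total RNA was made into strand-specific libraries. The remaining libraries, 3 for each of the siRNAs against LIMp27 (siRNA-1 and siRNA-2), received the same dose for the same time. Their values were not used. The 3 control libraries held 18567270, 17127948 and 18655457 reads counted to genes, and no library stood apart in depth. The labels do not say whether they came from separate cultures, whereas the study calls its RNA-seq libraries biological or experimental repeats, and the spread given below is that between these libraries. All of them are of 1 line, and no untransfected cells are described, so traits of the line and effects of transfection cannot be told apart.

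A colorectal tumor cell keeps part of the program of the gut lining. The normal lining is a single sheet of keratin-rich cells renewed from stem cells at the base of the crypts, where Wnt signals sustain division, and the daughters mature into absorptive and secretory cells. Most colorectal tumors activate Wnt signaling and often the RAS to ERK cascade downstream of growth factor receptors. The level of a gene is given as FPKM, which is the number of sequenced fragments per kilobase of transcript and per 1000000 reads counted to genes, so that genes of different length can be set side by side. A mean of 1 FPKM or more was used as a working threshold for a clear level. Some genes have no row in a table, which is taken here to mean too few reads over its libraries. A gene without a row in either table is said below to be not listed. Each table also holds libraries of 1 siRNA against LIMp27, so whether a gene is listed can depend on those libraries. Genes are named below for being the highest of their role in a list, for defining a cell type or for having 0 reads, and well-known cancer genes of lower level, such as NRAS, APC and SMAD4, were added after their values were seen.

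The study worked on LIMp27, which is the long noncoding RNA gene LINC01356 (chromosome 1, 112820170 to 112850643, minus strand, GRCh38). It had 0, 0 and 2 reads in the 3 control libraries. These 2 reads among 54350675 correspond to 0.0336 FPKM with an exact 95% Poisson interval of 0.00407 to 0.121, which covers counting error only. At this depth the RNA that the study silenced was therefore at the limit of detection in these control libraries. By quantitative PCR the study did measure it, as molecules per cell in HT-29 and as knockdown in the WiDr cells used for RNA-seq. Read counts and PCR are unlike measures, and the difference between them was not tested. CDKN1B, which encodes the cell cycle inhibitor p27 that the study examined beside it, stood at 38.8, 43.1 and 38.5 FPKM. HNRNPA0, an RNA-binding protein of the same study, stood at 35.9, 35.2 and 32.5 FPKM, and E2F1, a transcription factor of the G1 to S transition, at 29.1, 28.5 and 25.7 FPKM. For CDKN1B, HNRNPA0 and E2F1, replicate 3 was the lowest of the libraries, by a small margin for CDKN1B.

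Of 19951 protein-coding genes in the annotation, 10812 (54.2%) had a mean of 1 FPKM or more, 7498 reached 10, 1347 reached 100 and 99 reached 1000 FPKM. The plot of levels has a main peak near the median of 20.6 FPKM among the genes at 1 FPKM or more, and a low, flat shoulder of genes under 1 FPKM. Of the protein-coding genes at 1 FPKM or more on average, 10646 were so in each of the 3 libraries. The share of 54.2% is the background for the counts of list members given below, some of which lie near it. A further 5066 protein-coding genes were not listed and 581 were listed with 0 reads in all of the libraries. The 10 genes with the most reads took 8.48% ± 0.540 (SD, n = 3) of all reads and the 100 with the most took 24.7% ± 0.678.

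**Figure D1:**
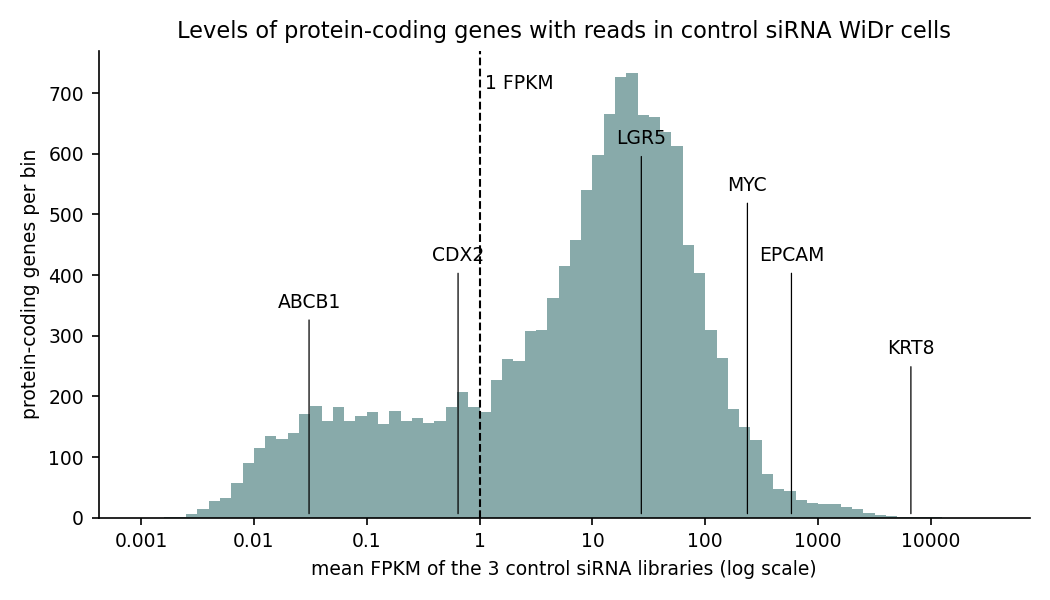
Histogram of the mean FPKM of protein-coding genes with at least 1 read in the 3 control siRNA libraries, on a log scale in bins of 0.1 log10 units, with the number of genes per bin on the vertical axis. The dashed line marks 1 FPKM, and the labelled genes run from ABCB1 at 0.0308 to KRT8 at 6636 FPKM.

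The most abundant nuclear messages encoded keratins, cytoskeletal proteins and the machinery of translation. KRT8, an intermediate filament protein of simple epithelia, led with 6650.4, 6872 and 6386 FPKM. EEF1A1, which carries aminoacyl-tRNAs to the ribosome, followed with 5041, 5085 and 5009 FPKM, and FTH1, the heavy chain of the iron store ferritin, with 4530.2, 4559 and 4771 FPKM. The values of these 3 genes did not overlap, so their order held in every library. TMSB10, a small actin-binding protein, stood at 4251 ± 194 FPKM (SD, n = 3 here and below) and ACTB, beta-actin, at 4045 ± 6.21, and the values of these neighbours overlapped. ANXA2, a calcium-dependent membrane binding protein, reached 3813 ± 104 FPKM, and KRT18, the filament partner of KRT8, 3409 ± 61.8. The next places were held by RPLP0, RPL4, NPM1, RPS3, GAPDH, ACTG1, EEF2, RPL8, LDHA, RPL7, RPS2, RPL13A and RPL27A, from 3058 down to 2213 FPKM. Of the 20 highest genes, 8 encode proteins of the cytosolic ribosome, and for 8 of the 20 the lowest library lay above the highest library of the gene next in order. Processed pseudogenes resemble ribosomal protein messages closely, and how the counting shared such reads is not given in the sources used here.

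The place of a gene in this order depended on the transcript length in the denominator. The deposited FPKM uses the mean length of all annotated transcripts of a gene, short fragments included. With the merged exons as length, KRT8 fell to 1240.2 per kilobase and 1000000 reads and to place 18 from 5 among protein-coding genes, with the mitochondrial ones counted in. ANXA2 went from place 11 to 83. Of the 20 highest nuclear genes, 11 stayed among the 20 highest with merged exons and 12 with the longest protein-coding transcript. Counts of reads per library do not change with this choice, and KRT8 took 158798, 151359 and 153199 reads.

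Genes of the translation apparatus are known for a run of pyrimidines at the start of the transcript, through which mTOR signaling controls their translation. Of the 20 highest genes, 14 have a promoter in the RefSeq table. Of these 14, 9 held a run of at least 6 C or T bases between positions -5 and 11, while the other 5 did not. The starts of 6 of the 9 are shown, from position -15 to 15 around the start in RefSeq (GRCh38.p14), with the pyrimidine run in capitals. Position 1 is the first transcribed base. Among the runs not shown, those of TMSB10 and RPL4 began after it, at positions 2 and 6, and that of RPL13A at -7.
EEF1A1 (chr6:73521018-73521047, minus strand): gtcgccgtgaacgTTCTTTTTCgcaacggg
RPLP0 (chr12:120201097-120201126, minus strand): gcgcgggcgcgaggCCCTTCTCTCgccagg
NPM1 (chr5:171387834-171387863, plus strand): cggggagcctgcgTCCTTTCCCTggtgtga
RPS3 (chr11:75399503-75399532, plus strand): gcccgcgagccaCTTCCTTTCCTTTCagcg
EEF2 (chr19:3985449-3985478, minus strand): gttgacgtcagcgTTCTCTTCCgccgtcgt
RPL27A (chr11:8682777-8682806, plus strand): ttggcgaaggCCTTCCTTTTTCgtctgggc

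A run of at least 6 C or T bases on the transcribed strand between positions -5 and 11 was found in 50 of the 67 promoters of cytosolic ribosomal protein genes at 1 FPKM or more that the RefSeq table holds (74.6%), against 14.4% of 8606 promoters of other protein-coding genes at that level and 14.8% of all 27305 promoters. On the opposite strand of the same window the shares were 1.49%, 10.1% and 12.9%. Among genes at 1000 FPKM or more that are not ribosomal proteins, 10 of 36 had such a run (27.8%). A few of the most abundant genes also hold the letters TATAAA upstream, shown here in capitals from position -45 to -16.
ANXA2 (chr15:60398002-60398031, minus strand): gaggatgtggcgggTATAAAagccccaccc
RPLP0 (chr12:120201127-120201156, minus strand): tggctactttgttcgcatTATAAAaggcac
EEF2 (chr19:3985479-3985508, minus strand): caaccggcgtccgccTATAAAaagctgagt

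TATAAA in this window, on the transcribed strand, was found in 2.63% of all promoters and in 0.798% on the opposite strand. By level, the share was 7.92% for protein-coding genes not listed, 1.09% for genes at 10 to 100 FPKM and 5.80% for genes at 1000 FPKM or more, the last being 4 of 69. CpG dinucleotides were more frequent in promoters of genes at higher levels. The ratio of observed to expected CpG over the 300 bases of each promoter had a median of 0.340 for genes not listed, 0.496 for listed genes under 0.1 FPKM, 0.812 for genes at 1 to 10 FPKM and 0.891 for genes at 1000 FPKM or more. These are matches of letters in an annotated window, and the start used in WiDr cells was not measured.

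Markers of epithelium were high in every library. All 22 genes of the epithelial list had a mean of 10 FPKM or more and 10 of them had 100 FPKM or more, with a median of 60.2 FPKM beside 10.2 for all listed protein-coding genes. KRT19 stood at 1495, 1576 and 1351 FPKM and KRT20, a keratin of the gut surface, at 339.7, 350.1 and 326 FPKM. EPCAM, an adhesion protein of epithelia, had 575, 569 and 596 FPKM and CDH1, the E-cadherin of adherens junctions, 42.1, 42.3 and 37.5 FPKM. For both keratins and CDH1, replicate 3 was the lowest, and for EPCAM it was the highest. The tight junction genes CLDN4 and CLDN7 had 198 ± 10.7 and 177 ± 8.36 FPKM, and the desmosome and adherens junction gene JUP 231 ± 17.8 FPKM. Among regulators of epithelial identity, KLF5 had 165 ± 5.37, EHF 111 ± 13.3 and the splicing regulator ESRP1 60.5 ± 1.38 FPKM.

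Markers of intestine were only partly present, and some that define the colon lining were near 0. Of 30 genes of the intestinal list, 21 (70%) had 1 FPKM or more, beside 54.2% of all protein-coding genes. A further 3 were listed at lower levels, and 6 were not listed. Of the 8 defining markers, 4 reached 1 FPKM. LGALS4, a galectin of gut epithelium, stood at 182, 163 and 182 FPKM and VIL1, the microvillus protein villin, at 47.6, 47.9 and 45.2 FPKM. HNF4A, a transcription factor of gut and liver, had 15.5, 16.2 and 14.3 FPKM. The 4 defining markers that did not reach 1 FPKM were low or not listed. CDX2, a homeodomain factor that specifies intestine, had 27, 28 and 26 reads and 0.628, 0.706 and 0.601 FPKM. CDH17, the liver and intestine cadherin, had 0, 1 and 0 reads. CDX1, a relative of CDX2, and GPA33, a surface antigen of colon epithelium, were not listed, and neither gene shares exon bases with another gene on its strand. The gut receptor gene GUCY2C was not listed either. Other factors of endoderm were present, with PPARG at 78.04 ± 2.12, FOXA1 at 53.7 ± 2.78 and GATA6 at 30.1 ± 1.66 FPKM, and the tetraspanin TSPAN8 reached 502 ± 2.26 FPKM. The label of colon adenocarcinoma thus fitted the epithelial markers and part of the intestinal ones, and the cells are named here by the label of the line.

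**Figure D2:**
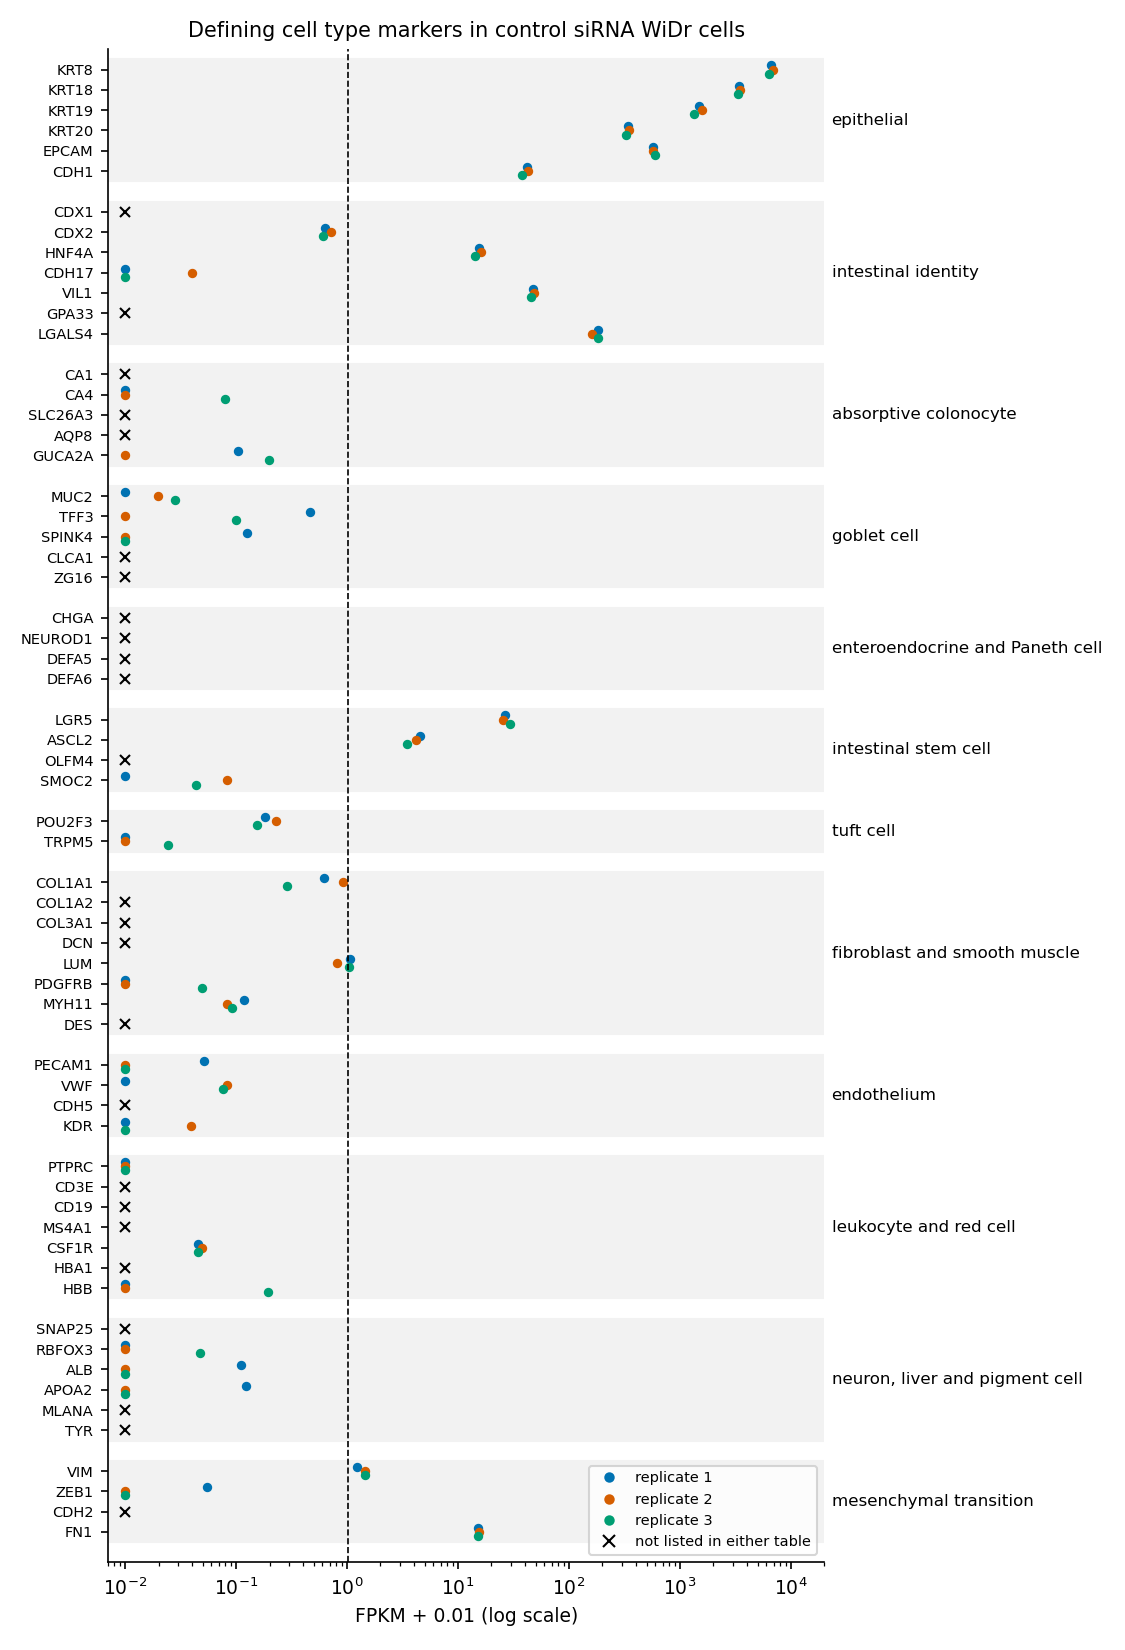
FPKM plus 0.01 on a log scale for defining markers of each cell type list (1 intestinal marker is not shown), with 1 point for each of the 3 replicates and the list named at the right. Crosses mark genes not listed in either table and the dashed line marks 1 FPKM. The 6 epithelial markers lie between the lowest value of CDH1, 37.5, and the highest of KRT8, 6872, and no defining marker of the absorptive, goblet, tuft, endothelial or blood lists reaches a mean of 1.

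Genes in the lists of mature gut cells were mostly near 0, apart from a minority at a clear level and single secretory genes at a very high one. Of 22 genes of absorptive colonocytes, 2 (9.09%) reached 1 FPKM, beside 54.2% of all protein-coding genes. They were DPP4, a brush border peptidase, at 49.5 ± 1.57 FPKM and the chloride channel CFTR at 7.64 ± 0.792 FPKM. The transporters and enzymes that define this cell, SLC26A3, CA1 and AQP8, were not listed, CA4 had 0, 0 and 1 reads and GUCA2A 1, 0 and 2 reads. Of 20 goblet cell genes, 7 (35%) reached 1 FPKM and 4 reached 10 FPKM, while the median of the 18 listed was 0.156 FPKM. AGR2, a protein folding enzyme of the secretory pathway, had 1444, 1383 and 1716 FPKM and the secreted lectin REG4 72.1, 56.4 and 67.6 FPKM, whereas the main gut mucin MUC2 had 0, 1 and 2 reads and the trefoil factor TFF3 5, 0 and 1 reads. For AGR2 and REG4 the replicates differed more than for most abundant genes, with a coefficient of variation (CV) of 11.7% and 12.4%. CLCA1 and ZG16 were not listed and SPINK4 had 1, 0 and 0 reads.

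Of 16 genes of enteroendocrine and Paneth cells, 3 (18.8%) reached 1 FPKM, beside 54.2% of all protein-coding genes. LYZ, the antibacterial enzyme lysozyme, was the highest of these at 2025, 1992 and 2045 FPKM, and its 3 values lay within a few percent of each other. PRSS2, a trypsinogen, had 49.2 ± 1.94 FPKM and the phospholipase PLA2G2A 1.86 ± 0.212 FPKM. The 4 defining genes CHGA, NEUROD1, DEFA5 and DEFA6 were not listed. Of 8 tuft cell genes, ALOX5 had 16.1 ± 1.28 and AVIL 1.01 ± 0.0441 FPKM, POU2F3, the factor that specifies this cell, had 6, 7 and 5 reads and TRPM5 had 0, 0 and 1 reads. The mean of AVIL was 0.991 FPKM without replicate 2 and 0.996 without replicate 3.

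Of 19 genes of intestinal stem cells, 12 (63.2%) had 1 FPKM or more, beside 54.2% of all protein-coding genes, and 2 of the 4 defining markers did. The median of the 17 listed was 20.6 FPKM. LGR5, the R-spondin receptor that marks crypt stem cells, had 26.6, 25.7 and 29.1 FPKM and ASCL2, a transcription factor of the same cells, 4.54, 4.19 and 3.47 FPKM. Replicate 3 was the highest for LGR5 and the lowest for ASCL2. CD44, a hyaluronan receptor, had 276 ± 8.25, SOX9 45.3 ± 0.8697 and PROM1 33.1 ± 0.754 FPKM. OLFM4, a secreted glycoprotein of crypt stem cells, was not listed, and SMOC2 had 0, 2 and 1 reads.

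Defining markers of other cell types were low, whereas a few other members of their lists were not. No defining marker of fibroblasts and smooth muscle (8 genes), endothelium (4), leukocytes and red cells (7) or neurons, liver and pigment cells (6) reached 1 FPKM. The nearest to it was LUM, a proteoglycan of connective tissue, at 1.05, 0.804 and 1.04 FPKM with a mean of 0.963, and this mean was 1.04 without replicate 2 and 1.23 on the TPM scale. The defining markers of these lists that were listed summed to 1.66 ± 0.195, 0.0701 ± 0.0301, 0.0981 ± 0.105 and 0.0829 ± 0.113 FPKM per library. In the first list LUM had 31, 22 and 31 reads and COL1A1, a chain of type I collagen, 13, 18 and 6 reads, and COL1A2, COL3A1, DCN and DES were not listed. LYZ, which the leukocyte list also holds, is given above. PTPRC, the common leukocyte antigen, was listed with 0 reads, for which 3 reads over the libraries set a limit of 0.0376 FPKM. Among the members that do not define their list, TAGLN had 10.1 ± 1.43 FPKM and SERPINA1, an inhibitor of proteases made by liver and gut, 93.5 ± 4.81 FPKM. PMEL, a pigment cell gene of the same list as SERPINA1, also reached 1 FPKM, and these were 2 of its 13 genes. Of the 12 genes of mesenchymal transition, FN1, fibronectin, had 15.2 ± 0.162, SNAI1 2.601 ± 0.215 and VIM, vimentin, 1.37 ± 0.133 FPKM, while ZEB1 had 2, 0 and 0 reads and CDH2 was not listed.

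HOX genes keep a record of position along the body axis and lie in 4 clusters in the order of that axis. In control WiDr cells, 23 of 39 HOX genes (59.0%) reached 1 FPKM, beside 54.2% of all protein-coding genes. These were 10 of 11 in cluster A, 8 of 10 in cluster B, 5 of 9 in cluster C and 0 of 9 in cluster D. The highest were HOXB6 at 46.3, 43.5 and 45.2 FPKM, HOXB9 at 39.9, 42.4 and 40.1 FPKM and HOXA10 at 41.2, 40.7 and 38.3 FPKM. The values of HOXB9 and HOXA10 overlapped, and both lay below HOXB6 in every library. In cluster A the level was 19.4 FPKM for HOXA5, 27.3 for HOXA9, 14.5 for HOXA11 and 7.42 for HOXA13. In cluster B it was 21.2 for HOXB3, 34.6 for HOXB7 and 23.97 for HOXB8, but HOXB13, the gene at the far end, had 24, 32 and 40 reads and 0.5100 ± 0.125 FPKM, and HOXB1 at the near end had 0 reads. The highest of cluster C was HOXC6 at 6.82 ± 0.7196 FPKM, and HOXC10 and HOXC11 had 0 reads. In cluster D, 7 genes were not listed, HOXD8 had 9, 3 and 2 reads and HOXD1 had 1, 0 and 1 reads. Neighbouring HOX genes share some exon bases on the same strand, which came to 16.6% for HOXB6, 30.97% for HOXA4 and 59.9% for HOXC5, and their part in these levels was not tested.

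**Figure D3:**
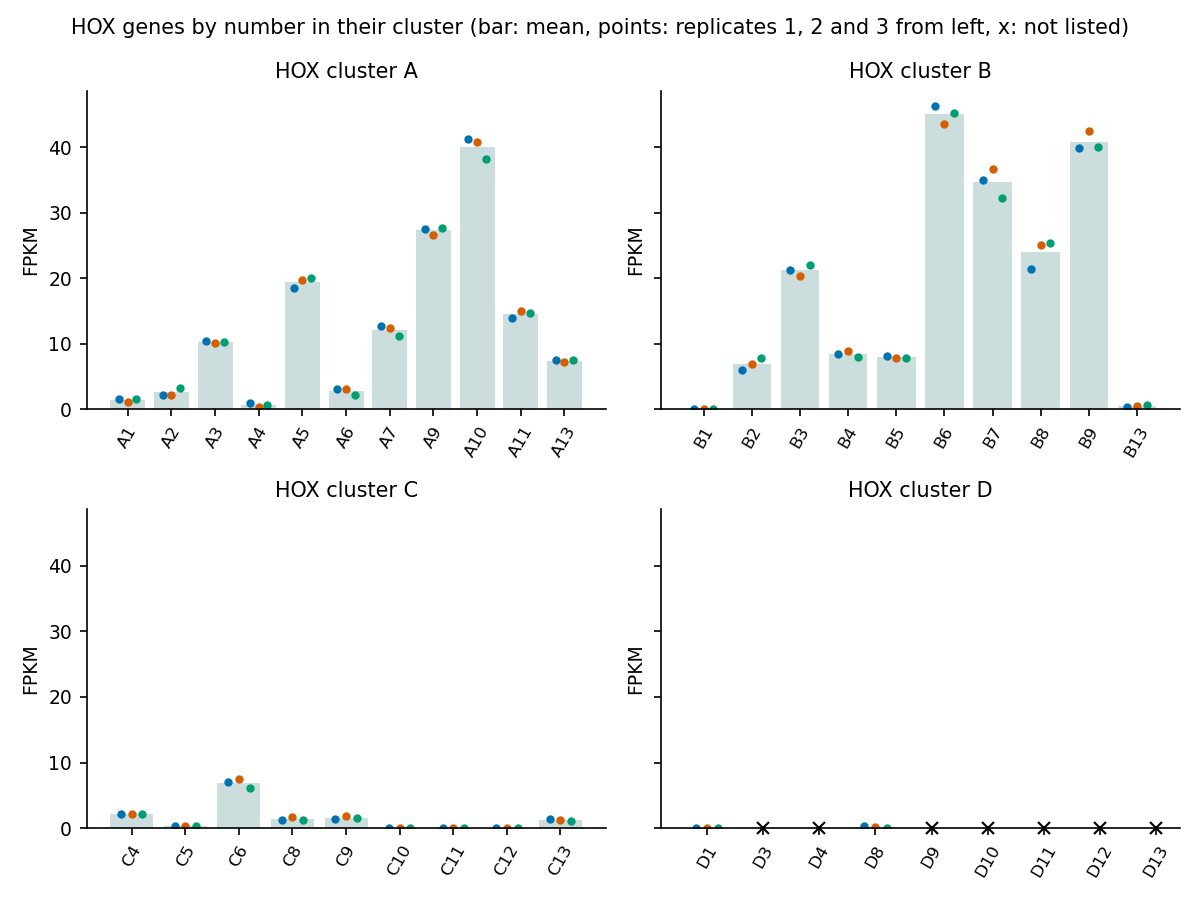
FPKM of the HOX genes, ordered by gene number within clusters A to D, with bars for the mean and points for replicates 1, 2 and 3 from left to right, all panels on the same linear axis from 0. Crosses mark genes not listed. Clusters A and B hold the 11 genes above 10 FPKM, cluster C peaks at HOXC6 with 6.82 FPKM, and cluster D stays at the baseline.

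Receptor tyrosine kinases pass growth factor signals across the membrane. Of 58 such genes, 27 (46.6%) had 1 FPKM or more, beside 54.2% of all protein-coding genes. Among the 58, 15 had 10 FPKM or more and 4 had 100 FPKM or more. MET, the receptor of hepatocyte growth factor, was the highest at 164, 177 and 169 FPKM. EPHA2, an ephrin receptor, followed at 141, 157 and 135 FPKM and DDR1, a collagen receptor, at 116, 123 and 111 FPKM. By FPKM, MET was above EPHA2 and EPHA2 above DDR1 in every library, and no value of one overlapped those of the next. FGFR4 had 105, 102 and 93.7 FPKM, whereas FGFR2 and FGFR3 had 6.26 ± 0.532 and 6.02 ± 0.786 FPKM and FGFR1 had 0, 5 and 0 reads.

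Within the EGF receptor family, ERBB3 had 57.9, 56.01 and 56.5 FPKM, EGFR 48.2, 52.7 and 50.02 FPKM and ERBB2 43.2, 44.5 and 38.6 FPKM. By FPKM, the order in each library was ERBB3, EGFR and ERBB2, and other length choices are not given here. ERBB4 was listed with 0 reads, and 3 reads over the libraries set its limit at 0.0116 FPKM. Among the rest, EPHB4 had 70.7 ± 8.32, RYK 59.6 ± 1.23, PTK7 51.5 ± 2.304, EPHB6 40.1 ± 4.83, EPHA1 38.4 ± 1.84 and the MET relative MST1R 32.8 ± 0.344 FPKM. IGF1R had 19.1 ± 0.655 FPKM and the insulin receptor INSR 4.49 ± 0.0914 FPKM. No receptor of the PDGF and KIT, VEGF, neurotrophin or LTK groups reached 1 FPKM, and KIT, FLT3, PDGFRA, FLT1, NTRK3, MUSK, RET and ROS1 were not listed.

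RNA of several ligands of these receptors was present in the same cells. AREG, amphiregulin, a ligand of EGFR, had 173, 180.1 and 179.6 FPKM. The other EGFR ligands TGFA and EREG had 59.02, 65.2 and 58.9 and 53.4, 52.3 and 53.01 FPKM, and HBEGF had 12.8 ± 0.581 FPKM. The values of AREG lay above those of TGFA in all libraries, and those of TGFA above those of EREG. EGF itself had 0, 1 and 1 reads and EPGN 0 reads. PDGFB, for whose receptors PDGFRA was not listed and PDGFRB had 0, 0 and 1 reads, stood at 74.8, 84.3 and 72.7 FPKM, and VEGFA at 69.3, 65.2 and 69.2 FPKM. HGF, the ligand of MET, IGF1 and IGF2 were not listed. For IGF2 the shared exon bases come to 73.7% and 89.97% of the 2 genes annotated by that name, so its missing row says little about its RNA.

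**Figure D4:**
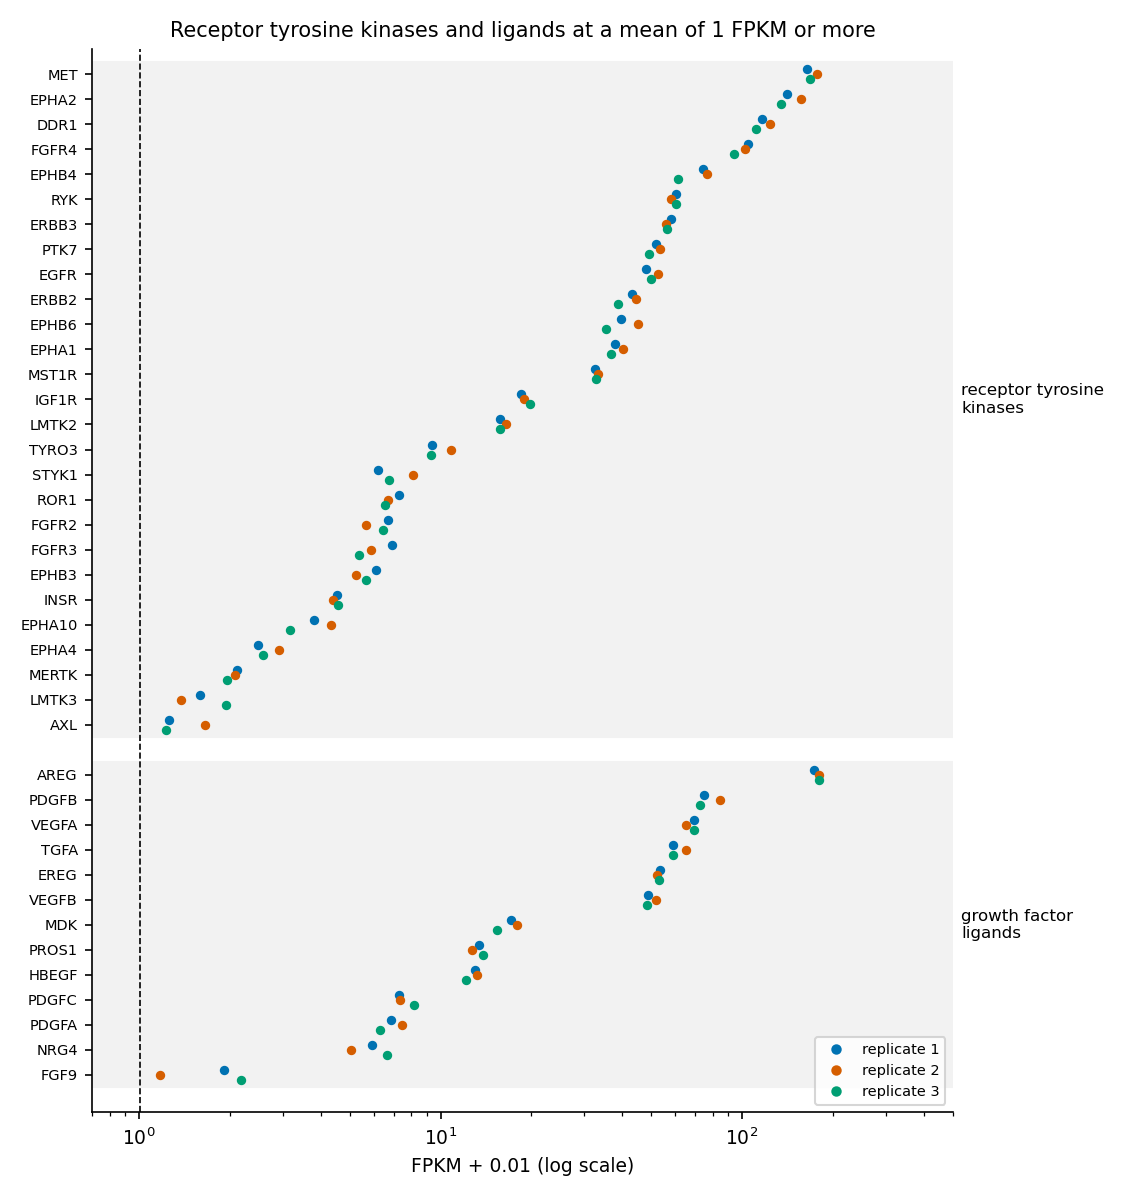
FPKM plus 0.01 on a log scale for the 27 receptor tyrosine kinases and 13 growth factor ligands with a mean of 1 FPKM or more, ordered by mean, with 1 point per replicate. The receptors run from MET at 169.7 to AXL at 1.37 FPKM and the ligands from AREG at 178 to FGF9 at 1.74 FPKM.

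Receptors of Wnt ligands were present at moderate levels, with 13 of 19 (68.4%) at 1 FPKM or more, beside 54.2% of all protein-coding genes. The co-receptor LRP5 had 115, 119 and 107 FPKM, and LRP6 11.1, 11.2 and 12.3 FPKM, so LRP5 was far above LRP6 in every library. LGR4, an R-spondin receptor, had 45.7 ± 1.93 FPKM. Of the Frizzled receptors, FZD6 had 10.3 ± 1.02 and FZD5 8.21 ± 0.432 FPKM.

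Of 29 cytokine receptors, 18 (62.1%) reached 1 FPKM, beside 54.2% of all protein-coding genes. They were led by IL6ST, the shared signal subunit of the interleukin 6 family, at 62.7 ± 0.949 FPKM. Then came IL13RA1 at 59.5 ± 2.13, IFNGR1 at 45.97 ± 1.67 and IL4R at 39.6 ± 2.44 FPKM. Of 15 genes of the TNF receptor family, 10 (66.7%) reached 1 FPKM and 3 reached 100 FPKM. The highest was TNFRSF12A, the receptor of TWEAK, at 259, 279 and 245 FPKM, followed by TNFRSF21 at 151 ± 6.09 and LTBR at 134 ± 5.35 FPKM. The death receptor TNFRSF10B had 97.01 ± 1.99 FPKM and TNFRSF10A 26.00 ± 1.89 FPKM, and FAS 4.897 ± 0.565 FPKM. All values of TNFRSF10B exceeded those of TNFRSF10A. Of 12 receptors of the TGF-beta family, TGFBR2 was the highest at 27.4 ± 1.24 FPKM, followed by ACVR1 at 20.5 ± 0.426 and ACVR1B at 17.00 ± 1.03, and BMPR1B had 0 reads.

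Among 24 surface proteins that serve as drug targets, 16 (66.7%) reached 1 FPKM, beside 54.2% of all protein-coding genes, and 5 reached 100 FPKM. EPCAM and MET are given above. TFRC, the transferrin receptor, had 311 ± 20.5 FPKM, LY6E 111 ± 8.88 and the B7 family member CD276 109.8 ± 8.06 FPKM. CEACAM5, the carcinoembryonic antigen, had 9.64 ± 0.723 FPKM and CD274, the ligand of the immune checkpoint PD-1, 2.17 ± 0.325 FPKM.

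The Wnt pathway acts by keeping beta-catenin from a destruction complex, after which it drives transcription with TCF and LEF factors. Of 61 genes of the pathway, 33 (54.1%) reached 1 FPKM, which is near the 54.2% of all protein-coding genes. In the destruction complex CSNK1A1, the priming kinase, had 71.4 ± 9.32 FPKM with 37.4% of its exon bases shared, and GSK3A, GSK3B and AXIN2 had 37.97 ± 2.06, 37.1 ± 0.318 and 23.8 ± 0.345 FPKM. The scaffold APC had 8.92, 7.81 and 9.25 FPKM. Among the factors of transcription, CTNNB1, beta-catenin, had 61.6, 65.3 and 58.4 FPKM and its partners TCF7 and TCF7L2 had 38.7 ± 1.73 and 31.7 ± 1.29 FPKM, while TCF7L1 had 0, 0 and 1 reads and LEF1 was not listed. TLE1, a corepressor, had 66.7 ± 8.27 FPKM.

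Among the targets and feedback genes of Wnt signaling, CCND1, cyclin D1, was the highest at 333, 362 and 348 FPKM. DKK1, a secreted inhibitor of the pathway, had 262, 282 and 283 FPKM and MYC 236, 246 and 227 FPKM. The 3 values of each of these genes lay close together, and CCND1 was above DKK1 and MYC in every library. ETS2 and the matrix protease MMP7 were lower, at 102 ± 3.47 and 93.9 ± 2.06 FPKM. The feedback genes RNF43 and ZNRF3, which remove Frizzled receptors from the surface, had 23.9 ± 0.582 and 21.1 ± 0.781 FPKM, with 59.5% of exon bases shared for RNF43. NKD1 had 0.856 ± 0.0492, NOTUM 0, 1 and 2 reads, and SFRP5 0 reads, and WIF1, SFRP2 and APCDD1 were not listed. Of 19 Wnt ligands, 5 (26.3%) reached 1 FPKM, beside 54.2% of all protein-coding genes, and none had a mean of 10 or more. WNT11 had 8.68 ± 2.12 FPKM and WNT7B 8.48 ± 0.958 FPKM, and their values overlapped.

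The genes of the RAS to ERK cascade were nearly all present, with 34 of 35 (97.1%) at 1 FPKM or more and a median of 43.9 FPKM. HRAS had 133 ± 7.12 FPKM and the adaptor GRB2 118 ± 4.91 FPKM. NRAS had 29.3, 29.1 and 28.8 FPKM, and by FPKM it was below HRAS in every library. Of the RAF kinases ARAF had 54.5 ± 4.89 and BRAF 8.54 ± 0.669 FPKM. On the scale of merged exons these became 20.3 and 0.9799, so that ARAF stayed the higher. MAP2K2 and MAP2K1, the MEK kinases, had 87.7 ± 2.31 and 80.6 ± 4.81 FPKM.

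Genes that ERK activity is known to induce were high. FOS had 415, 388 and 385 FPKM, FOSL1 135, 136 and 147 FPKM, and the ERK phosphatase DUSP6 124, 120.4 and 122 FPKM. Of the 19 genes of this role, 18 reached 1 FPKM and 7 reached 100 FPKM, against 6.75% of protein-coding genes at 100 FPKM or more. CCND1, MYC and EPHA2, which other lists also hold, are among those 7. Further down stood EGR1 at 106 ± 5.43, IER3 at 74.97 ± 1.95, ETV4 at 44.9 ± 0.985 and DUSP5 at 39.8 ± 0.274 FPKM.

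Of 26 genes of the PI3K, AKT and mTOR pathway, 22 (84.6%) reached 1 FPKM, beside 54.2% of all protein-coding genes. The regulatory subunit PIK3R1 had 34.4 ± 1.02 and the catalytic subunits PIK3CB and PIK3CA 16.5 ± 0.757 and 7.18 ± 0.366 FPKM. PIK3R2 had 1, 1 and 2 reads, but 87.2% of its exon bases are shared with another gene on the same strand. RHEB, the activator of mTOR, was the highest at 212 ± 1.02 FPKM, followed by AKT2 at 143 ± 8.98, the translation repressor EIF4EBP1 at 122 ± 1.899 and AKT1 at 61.3 ± 3.64 FPKM. The level of AKT2 depended strongly on length, with 11.4 per kilobase of merged exons.

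Genes that respond to DNA damage and other stress were present. GDF15, a stress cytokine, had 399, 411 and 358 FPKM and BAX, an activator of apoptosis, 144, 142 and 140.4 FPKM. CDKN1A, which encodes the inhibitor p21, had 64.3, 63.9 and 62.01 FPKM and the ubiquitin ligase MDM2 48.9 ± 2.61 FPKM. GDF15 spread more than BAX over the libraries, with a CV of 7.22% against 1.37%. By FPKM, CDKN1A exceeded CDKN1B in every library.

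Genes of the cell cycle were present throughout. Of 15 cyclins, kinases and inhibitors of G1, 14 (93.3%) reached 1 FPKM, beside 54.2% of all protein-coding genes, and CCND2 was not listed. Besides CCND1, CDK4 had 311 ± 11.3 FPKM and CDK2 94.5 ± 8.95 FPKM. CDKN2A, whose products include the inhibitor p16, had 148, 149.5 and 127 FPKM, counted per gene and not per transcript. RB1, the retinoblastoma repressor that p16 protects, had 61.5 ± 1.11 FPKM. All 10 genes of the E2F list reached 1 FPKM, with the dimer partner TFDP1 at 198 ± 7.44, E2F4 at 87.7 ± 4.78 and E2F1 as given above. All 9 proliferation markers also did, with the mitotic cyclin CCNB1 at 268 ± 2.92, the replication clamp PCNA at 220.4 ± 6.14, TOP2A at 185 ± 2.38 and CDK1 at 139.6 ± 3.49 FPKM. TERT, the catalytic subunit of telomerase, had 1.71, 1.74 and 1.46 FPKM.

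Of 22 genes of TGF-beta and SMAD signaling, 15 (68.2%) reached 1 FPKM, beside 54.2% of all protein-coding genes. BMP4, a secreted ligand, was the highest at 357, 349 and 345 FPKM, and SMAD3 had 252 ± 12.4, ID1, a target of BMP signals, 161 ± 15.1 and TGFB1 76.8 ± 4.298 FPKM. SMAD4, the shared SMAD partner, had 5.34, 4.25 and 5.75 FPKM. On the scale of merged exons SMAD3 came to 34.3 and SMAD4 to 0.766, so SMAD3 stayed the higher. The BMP antagonists NOG and GREM1 were not listed.

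Notch pathway genes included the ligand JAG1 at 75.9 ± 3.48, the effector RBPJ at 58.2 ± 1.95, the target HES1 at 34.4 ± 0.938 and the coactivator MAML1 at 30.98 ± 0.861 FPKM. Of the 15 Notch genes, 10 (66.7%) reached 1 FPKM. In the Hedgehog pathway, 5 of 11 (45.5%) did, beside 54.2% of all protein-coding genes. The ligand SHH had 27.7, 29.6 and 27.4 FPKM and IHH 5.75, 4.82 and 5.03 FPKM. Downstream of them the receptor PTCH1 had 2.78, 3.73 and 3.096 FPKM, but SMO, the membrane protein that passes the signal on, was not listed and has no exon bases shared on its strand. GLI2 had 7.57 ± 1.06 FPKM, GLI1, itself a target of the pathway, 48, 24 and 25 reads, and GLI3 was not listed. In the MYC family, the partner MAX had 52.03 ± 0.6297 and the antagonists MNT and MXI1 17.6 ± 0.8001 and 17.3 ± 0.561 FPKM, and MYCN was not listed.

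All 11 genes of mismatch repair and related enzymes were present. POLD1 and POLE, polymerases with proofreading, had 57.96 ± 2.54 and 50.99 ± 1.65 FPKM, MSH6 42.9 ± 1.98 and EXO1 33.6 ± 0.422 FPKM. The 3 values of EXO1 were nearly equal.

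Of 31 genes that bear on the response to fluoropyrimidines, platinum or irinotecan, 24 (77.4%) reached 1 FPKM, beside 54.2% of all protein-coding genes. GSTP1, a glutathione transferase, had 646, 677 and 644 FPKM. TK1, thymidine kinase, had 260.0 ± 7.31 FPKM, TYMS, thymidylate synthase and the target of fluorouracil, 164, 162 and 158 FPKM and RRM1, a subunit of ribonucleotide reductase, 133 ± 8.61 FPKM. TYMS varied little over the libraries. At the other end, DPYD, which breaks fluorouracil down, had 25, 26 and 23 reads and 0.796 ± 0.0837 FPKM, and TYMP, which activates it, 9, 5 and 3 reads with 20.7% of its exon bases shared. The drug pump ABCB1 had 1, 2 and 0 reads. SLFN11 was not listed.

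Among carriers of glucose and lactate, 3 genes stood above the rest. SLC2A1, the common glucose carrier GLUT1, had 715, 777 and 651 FPKM, and the lactate carriers SLC16A1 and SLC16A3 had 97.2 ± 3.76 and 69.8 ± 3.86 FPKM. These exceeded every other one of the 12 genes of this list. Of the 12, 6 (50%) reached 1 FPKM, near the 54.2% of all protein-coding genes. The median of the 9 listed genes was 1.37 FPKM. SLC2A3 and SLC2A5 were not listed. Of 14 carriers of amino acids and peptides, 11 (78.6%) reached 1 FPKM and 5 reached 100 FPKM. SLC3A2, the heavy chain shared by several exchangers, had 871, 879 and 903 FPKM, the glutamine carriers SLC38A2 and SLC1A5 306 ± 21.2 and 296 ± 13.9 FPKM, and SLC38A1 161 ± 6.45 FPKM. The peptide carrier SLC15A1 and the brush border carrier SLC6A19 were not listed.

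Of 25 pumps, exchangers and channels, 15 (60%) reached 1 FPKM, beside 54.2% of all protein-coding genes. The sodium pump subunit ATP1B1 had 143 ± 8.17 FPKM, the anion exchanger SLC4A2 194 ± 15.6 and ATP1B3 92.01 ± 1.05 FPKM. The sodium channel subunit SCNN1A had 73.3 ± 1.503 FPKM, while its partners SCNN1B and SCNN1G were not listed. Of 20 carriers of metals, nucleotides, nucleosides and bile acids, 16 (80%) reached 1 FPKM. The mitochondrial ADP and ATP carrier SLC25A5 was the highest at 909, 954 and 901 FPKM, followed by the phosphate carrier SLC25A3 at 329 ± 1.41 and SLC25A6 at 314 ± 11.5 FPKM. SLC51B, a bile acid carrier subunit, had 0 reads and SLC10A2 was not listed.

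Cancer-testis antigens are normally confined to germ cells. Only 5 of 22 (22.7%) reached 1 FPKM, beside 54.2% of all protein-coding genes, but 3 of these reached 100 FPKM. MAGEA3 had 187, 187 and 173 FPKM, MAGEA6 159, 156 and 153 FPKM, CTAG2 113, 106 and 104 FPKM and MAGEA12 97.2, 98.8 and 94.9 FPKM. The order of these 4 was the same in all libraries. MAGEA3 and MAGEA6 are nearly identical in sequence and CTAG2 has a close copy, so the split of reads between copies is uncertain. MAGEA4, PRAME and GAGE1 were listed with 0 reads.

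Among 17 genes of antigen presentation, 9 (52.9%) reached 1 FPKM, beside 54.2% of all protein-coding genes. B2M, the light chain of class I molecules, had 313, 311 and 326 FPKM. HLA-E had 79.5 ± 2.15, TAPBP 51.6 ± 2.44 and HLA-C 28.6 ± 1.12 and HLA-B 6.89, 8.58 and 6.28 FPKM. Class I genes are highly similar and vary between people, which affects alignment to a reference, and the part of this in their levels was not tested. Of class II, HLA-DPA1 had 0 reads, and HLA-DRA, HLA-DRB1 and HLA-DQA1 were not listed.

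Mitochondrial genes took 7.65%, 7.24% and 8.64% of the reads of replicates 1, 2 and 3. MT-CO1, a subunit of cytochrome oxidase, had the most reads, 313114, 285931 and 359241, followed by the ribosomal RNA MT-RNR2 with 223519, 168085 and 237522, and then by MT-CO3, MT-ND4 and MT-CO2 with 147529, 137092 and 165426, 120408, 112491 and 144726 and 120696, 108175 and 133350 reads. Replicate 3 was the highest for each of the 5 genes, in reads and in FPKM.

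Genes annotated as lincRNA or antisense took 0.323% ± 0.0412 and 0.398% ± 0.00587 of reads. MALAT1, a nuclear long noncoding RNA, was the highest by its mean at 507, 345 and 764 FPKM, with replicate 3 far above replicate 2, where AC006064.4 was higher. On merged exons its level was 77.6. The antisense gene AC006064.4 came next at 364, 359 and 408 FPKM, followed by AL138963.3 and AC011603.2, also antisense, at 212 ± 11.97 and 211 ± 7.45 FPKM. LINC00665 had 123 ± 2.41, PVT1 74.1 ± 6.52 and NORAD 61.3 ± 1.304 FPKM. All exon bases of AC006064.4 and of AL138963.3 lie opposite exons of another gene, and how far those genes add to their counts was not tested.

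Large families that serve other tissues were at or near the limit of counting. Of 386 olfactory receptor genes, 372 were not listed and 0 reached 1 FPKM, and the highest, OR2AG2, had 0.122 ± 0.0341 FPKM. Of 94 keratin-associated proteins of hair, 88 were not listed and 0 reached 1 FPKM. Of 45 defensins 1 was listed, DEFB1 at 0.115 ± 0.112 FPKM, and of 17 type I interferon genes 1 was listed, IFNE at 0.271 ± 0.175 FPKM. In contrast, 82 of 87 cytosolic ribosomal protein genes (94.3%) and 35 of 39 proteasome genes (89.7%) reached 1 FPKM. Among 378 solute carriers 185 (48.9%) did, among 97 potassium channel genes 11 (11.3%) and among 55 keratins 11 (20%), beside 54.2% of all protein-coding genes.

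A low count does not always mark a silent gene. Of 475 protein-coding genes with 90% or more of their exon bases shared with another gene on the same strand, 0 reached 1 FPKM and 95.8% had at most 3 reads or were not listed. Of the 18012 genes with under 10% shared, 56.4% reached 1 FPKM and 32.2% had at most 3 reads or were not listed. Among genes with under 10% shared on their own strand, those with 10% to 50% opposite an exon on the other strand reached 1 FPKM in 71.1% of cases and those with under 10% in 54.6%. In the gene lists 11 of 765 members had 50% or more of their exon bases shared on the same strand, and 2 of these reached 1 FPKM.

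The replicates lay close together. Over 10123 genes with a mean of at least 100 reads, the median CV after scaling by library total was 5.02% and the 95th percentile 14.01%, and 108 genes exceeded 20%. The biological coefficient of variation, which leaves counting error out, was 4.71% by the common dispersion of edgeR. The median CV was 6.22% for genes with 100 to 1000 reads and 2.95% for those with 10000 or more, where counting error alone gives a median of 4.97% and 0.786%. Across these genes Pearson's r on the scale log2(CPM + 1) was 0.997, 0.996 and 0.995 for the pairs 1 and 2, 1 and 3, and 2 and 3, as a description across genes, which are not independent replicates. The chi-square per degree of freedom of the counts was 2.85, 4.12 and 5.91 for the same pairs. A value near 1 is what sampling noise alone gives, so no library was a copy of another, and replicates 2 and 3 were the farthest apart. Without replicate 3 the median CV was 3.54%, over the 2 libraries left.

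**Figure D5:**
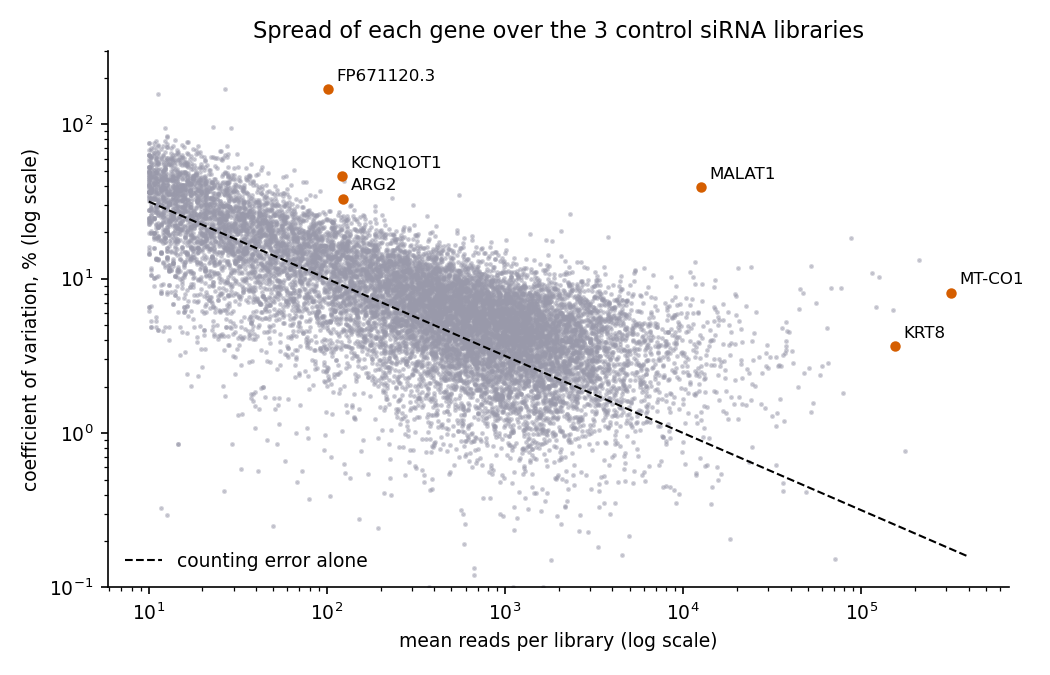
CV in percent over the 3 control siRNA libraries against mean reads per library, both on log scales, with 1 point for each gene with a mean of at least 10 reads. The dashed line is the CV that counting error alone gives, 6 genes are marked, and MALAT1 (39.3%) and FP671120.3 (169.8%) stand far above the genes of like read number.

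Of the 108 genes with a CV over 20%, 73 were protein-coding, 8 lincRNA and 8 antisense. The 10 genes with the largest CV are described here. FP671120.3, a lincRNA on chromosome 21, had 299, 0 and 4 reads, all but 4 of them in replicate 1, and its CV of 169.8% was the highest. KCNQ1OT1, an antisense RNA of an imprinted region, had 106, 71 and 188 reads, MALAT1 11980, 7517 and 18142 reads and AL161431.1 447, 419 and 793 reads. In these 3, replicate 3 was the highest, as it was for the mitochondrial genes. The pseudogene AC090498.1 ran the other way, with 150, 158 and 66 reads. Of protein-coding genes, ARG2, a mitochondrial arginase, had 138, 72 and 157 reads, the disulfide isomerase TXNDC5 310, 376 and 221 reads and NPIPB5, a member of a repeated family, 215, 114 and 226 reads. Shared exon bases on the same strand came to 60.6% for TXNDC5. The remaining genes of the 10 with the largest CV were AC244154.1 at 33.2% and AC096536.2 at 29.9%. The genes over 20% were 8 of 70 lincRNA genes, 8 of 130 antisense genes and 73 of 9715 protein-coding genes.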

How the data were processed

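Total RNA from WiDr cells was sequenced by the authors as strand-specific libraries, with CASAVA for base calls and GRCh38 as the genome. The aligner and the counter are not given in the sources used here. The authors deposited raw counts of reads for each gene, beside FPKM values and gene lengths. For 19098 of 19098 genes over 0.05 FPKM in replicate 1, the FPKM equalled reads per kilobase of mean transcript length per 1000000 counted reads within 1%. The deposited gene lengths equalled the merged exon length in GENCODE 29 for all 25159 gene IDs, all of which matched. The control libraries appear in 2 tables (23981 and 23919 genes, 22741 in both, 0 of them with a different control value), and the union of 25159 genes was used. The 2418 genes in 1 table only had at most 1 control read in sum. A further 24 columns of samples were not used, nor were the authors' columns of fold changes and p-values between groups.

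Levels are means ± SD of FPKM over 3 libraries, and ranks are among protein-coding genes. For a gene listed at 0 reads, the limit is that of 3 reads over all libraries, for counting error only. The CV was computed after scaling to the library total, for genes with a mean of at least 100 reads, and the dispersion with edgeR 4.0.16 (R 4.3.3) from the counts of the control libraries. Other steps used Python 3.11.15, pandas 2.3.3 and numpy 2.4.6, and the dispersion and spread steps were tested on simulated data. No groups were compared, and no test of a difference was made. Promoters are from RefSeq (GRCh38.p14), for 14896 protein-coding genes matched by name. TATAAA was searched from position -45 to -16 and the run of at least 6 C or T bases from -5 to 11, on both strands.

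The genes and the 34 lists were chosen with earlier results of these data known. Genes named were the 20 highest nuclear protein-coding genes, the 5 mitochondrial genes with the most reads, up to 4 highest members of each role of a list, defining members, up to 5 members at 0 reads, the 10 highest lincRNA or antisense genes, the 10 genes with the largest CV, HOX genes, and the 3 highest of each family. Named after their values were seen were ABCB1, APC, BRAF, CD274, CD276, CEACAM5, DPYD, DUSP5, DUSP6, EGF, EGR1, ETS2, ETV4, FAS, FOSL1, GLI1, HLA-B, HLA-C, IER3, LINC01356, LRP6, MMP7, NKD1, NOTUM, NRAS, PIK3R2, PTCH1, RB1, RNF43, SCNN1A, SMAD4, TCF7L1, TCF7L2, TERT, TNFRSF10A, TYMP and ZNRF3, and genes said to be not listed that define no cell type. Some genes of the lists are not reported here. Alternatives were other FPKM thresholds, TPM in place of FPKM, merged exons or the longest transcript as length, other read minimums, no mitochondrial genes, and leaving out each library.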

Additional observations from a re-analysis of the deposited data

How the results depend on the processing

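No paired analysis was possible because no groups were compared. Read shares depended on mitochondrial genes, without which the 10 genes with the most reads took 5.02% and the 100 took 19.7%. Counting genes with at most 1 read in place of 0 reads gave 3743 genes of all kinds and 997 protein-coding genes. Leaving out 1 library gave 3011 to 3373 genes of all kinds at 0 reads, against 2158 with all libraries, and the highest was without replicate 3. The median CV was 6.53% with a minimum of 10 reads and 3.73% with 1000, and 3.54% to 4.69% when 1 library was left out. The biological coefficient of variation ranged from 3.45% to 5.65% over the same leave-outs. Of the 20 highest genes, 11 stayed among the 20 highest with merged exons as length and 12 with the longest transcript, a choice added after the data were seen. Protein-coding genes at 1 or more numbered 9839 with merged exons and 10286 with the longest protein-coding transcript, against 10812 by FPKM. The depth of each library limits statements on genes with few reads. At 10 to 100 reads the median CV was 19.7%, and counting error alone gives a median of 18.4%. At 100 to 1000 reads these were 6.22% and 4.97%, so counting error was a large part of the spread there too.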

Other observations

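Gene families not described above are given here by their highest members. Their shares at 1 FPKM or more stand beside 54.2% of all protein-coding genes. Of 30 integrin genes, 15 (50%) reached 1 FPKM, which is near that background. ITGB1, the most widely shared beta chain, had 773 ± 50.95 FPKM (SD, n = 3), ITGB5 236 ± 17.1 and ITGA6, a laminin receptor chain, 215 ± 12.5 FPKM. Of 43 chemokines, 6 did, led by CXCL8, the neutrophil attractant interleukin 8, at 224, 237 and 221 FPKM, with CXCL16 at 59.1 ± 2.77 and CXCL1 at 9.03 ± 0.863 FPKM. Of 24 claudins, 8 (33.3%) did, and CLDN2, which forms paracellular cation pores, came after CLDN4 and CLDN7 at 166 ± 4.37 FPKM.

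Of 55 cytochrome P450 genes, 11 (20%) reached 1 FPKM, beside 54.2% of all protein-coding genes. CYP2S1 had 71.4 ± 3.28 FPKM, CYP3A5 11.9 ± 1.68 and CYP2R1 11.7 ± 0.0627 FPKM. Of 19 UDP-glucuronosyltransferases, 3 (15.8%) reached 1 FPKM. These were UGT1A6, UGT1A10 and UGT1A1, which share most of their exons, so the split between them is uncertain. Of 17 mucins 2 (11.8%) reached 1 FPKM, MUC13 at 13.5 ± 0.449 and MUC20 at 2.997 ± 0.615 FPKM. Of 45 ABC transporters, 22 (48.9%) reached 1 FPKM, which is near the background. The highest, ABCE1 and ABCF1 at 149 ± 2.13 and 110.3 ± 5.18 FPKM, act in translation and not at a membrane. Of 53 clustered protocadherins, 5 (9.43%) reached 1 FPKM, with PCDHB2 at 13.5 ± 0.908 FPKM. Of 12 aquaporins 3 (25%) did, with AQP3 at 17.01 ± 0.771 FPKM.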
